A study of Caenorhabditis elegans with 2 samples.

Results

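The Caenorhabditis elegans genome carries 612 nuclear tRNA genes in the annotation used here, and 276 of them, or 45.1%, lie on chromosome X against 336 on the autosomes. These 276 genes were taken by biotype (tRNA) and chromosome alone, without any measured value. The question was where a tagged MADF-5 protein was found along them. MADF-5 belongs to the MADF family, whose members bind DNA through a fold first described in the Drosophila factor Adf-1. Chromatin immunoprecipitation with an antibody against GFP was done in whole L4 larvae of strain OP436, aged 50 hours and synchronised by L1 starvation after bleaching. The strain carries wgIs436, an insertion of fosmid 92D06 in which C01G12.1 (madf-5) is fused to TY1, EGFP and 3xFLAG, together with unc-119(+), in an unc-119(tm4063) background. The tagged protein therefore came from a fosmid transgene, and the larvae were used whole, so that all tissues were pooled. There was 1 group of 2 biological replicates, and no untagged strain or second condition was compared.

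tRNA genes are transcribed by RNA polymerase III from promoters that lie inside the gene. TFIIIC binds the A box and the B box of the transcribed sequence and places TFIIIB just upstream of the start, and a run of T after the gene ends transcription. The worm genome holds many copies of each tRNA gene, and chromosome X holds more of them than any other chromosome.

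A gene was called bound when its start lay within 500 bp of a summit in the conservative thresholded list, the 813 peaks that the authors called from both replicates. Of the 276 X tRNA genes, 134 were bound and 142 were not. The bound share was 48.6% (Wilson 95% interval 42.7 to 54.4%) on chromosome X, against 45.8% (40.6 to 51.2%) for the 154 of 336 autosomal tRNA genes. The background was 3.82%, or 960 of the 25103 genes of all kinds for which the ranked list held a summit at this distance. On the same footing, 134 of the 260 X tRNA genes with a ranked summit were bound (51.5%). Among the single autosomes the share ran between 37.2% on chromosome V and 59.4% on chromosome III, so that chromosome X lay inside the autosomal range. The difference between X and the autosomes was not tested. These intervals cover counting error only, and neighbouring genes share peaks, so genes are not replicates.

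The sequences of the genes under the strongest X peaks show the parts that the polymerase III machinery reads. Each gene below is followed by the 20 bases after its end, taken on the coding strand from the RefSeq copy of WBcel235. Capitals mark the B box core (GTTCNANNC) and the T run after the gene. These 4 genes lay under the X peaks that ranked 2, 4, 6 and 7 by signal. The genes at rank 1 are not shown, and the peaks at ranks 3 and 5 had no tRNA gene.
C33G3.t2 (tRNA-Lys): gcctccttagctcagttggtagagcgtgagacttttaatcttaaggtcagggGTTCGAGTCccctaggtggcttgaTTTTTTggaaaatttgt
T28B4.t1 (tRNA-Phe): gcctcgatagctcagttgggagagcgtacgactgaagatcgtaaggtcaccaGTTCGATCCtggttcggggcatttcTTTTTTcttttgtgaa
W02H3.t1 (tRNA-Leu): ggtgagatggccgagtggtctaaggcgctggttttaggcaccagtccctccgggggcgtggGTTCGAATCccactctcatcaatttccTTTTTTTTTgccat
C18A11.t2 (tRNA-Arg): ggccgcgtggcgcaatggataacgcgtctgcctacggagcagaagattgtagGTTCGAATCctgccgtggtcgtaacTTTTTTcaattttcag
They lie at chrX:14063946-14064018 (minus strand), chrX:6593596-6593668 (plus), chrX:11095673-11095754 (plus) and chrX:8036685-8036757 (minus). All 4 hold the B box core and a T run.

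A further 4 genes, all unbound, are shown. Unlike most unbound X genes, each lacks the B box core or TTTT in the 20 bases after the gene. Y75D11A.t2, C28G1.t5 and F52E10.t2 were the 3 X tRNA genes without that TTTT, and none of the 3 was bound (interval 0 to 56.1%). Of the 273 X genes with it 49.1% were bound, and on the autosomes 1 of 7 genes without it was bound. So few genes cannot show whether the T run matters. In F52E10.t2 a TTTT begins within the last 3 bases of the gene, so that 2 genes were without one when those bases were searched too. C28G1.t5 and ZK154.t1 lacked the B box core.
Y75D11A.t2 (tRNA-Arg): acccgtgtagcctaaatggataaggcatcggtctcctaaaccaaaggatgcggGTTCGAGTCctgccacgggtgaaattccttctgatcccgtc
C28G1.t5 (no isotype assigned): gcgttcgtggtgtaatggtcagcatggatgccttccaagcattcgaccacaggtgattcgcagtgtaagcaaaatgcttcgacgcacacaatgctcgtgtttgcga
F52E10.t2 (tRNA-Glu): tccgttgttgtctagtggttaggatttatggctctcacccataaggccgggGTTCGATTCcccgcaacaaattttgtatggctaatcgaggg
ZK154.t1 (tRNA-Asn): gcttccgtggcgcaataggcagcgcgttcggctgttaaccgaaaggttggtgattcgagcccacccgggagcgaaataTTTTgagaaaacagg
They lie on the plus strand at chrX:8838602-8838687, chrX:16274498-16274569 and chrX:7773190-7773262 for C28G1.t5, F52E10.t2 and ZK154.t1, and on the minus strand at chrX:1764254-1764327 for Y75D11A.t2. Each of the 4 is the only copy of its sequence among the nuclear tRNA genes.

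Nearly all X tRNA genes hold the B box core, so bound and unbound genes could hardly be compared by it. The core was present in 268 of the 276 X tRNA genes, of which 130 were bound (48.5%, interval 42.6 to 54.5%). Of the 8 genes without it 4 were bound (50.0%, 21.5 to 78.5%). On the autosomes 149 of 319 genes with it were bound (46.7%), against 5 of 17 without it (29.4%, 13.3 to 53.1%). So few genes without it cannot show whether the B box core matters. The A box core (TNGCNNAG) was present in 113 genes, of which 54 were bound (47.8%, 38.8 to 56.9%), against 80 of the 163 genes without it (49.1%, 41.5 to 56.7%). A T run followed 273 genes, 134 of them bound, with its first base at position 5 after the gene end in the median. TTTT also followed 35.7% of the 2731 X protein-coding genes within the same length. In windows of 72 bp, the median length of an X tRNA gene, searched on both strands around the 20219 X ranked summits away from tRNA genes, the B box core occurred in 2.78% and the A box core in 8.30%. In the same 72 bp windows the B box core occurred in 56 of 112 X peaks at tRNA genes (50.0%) and 3.51% of the 57 X peaks elsewhere. In windows of 224 bp around the summit, it occurred in 108 of 112 X peaks at tRNA genes (96.4%), against 8 of 57 X peaks elsewhere (14.0%) and 9.16% of the ranked summits away from tRNA genes. The A box core occurred in 50.0% of the 224 bp windows at X tRNA peaks, against 42.1% at X peaks elsewhere and 22.2% at the ranked summits away from tRNA genes. The 2 patterns were searched separately, and a match says only that the letters are present. Peaks were grouped here by lying at tRNA genes, nearly all of which hold the B box core. Its higher share at those peaks therefore follows from the grouping and says nothing about binding.

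The summits sat on the genes themselves. Of the 169 X peaks of the conservative list, 112 lay at tRNA genes, and 91 of these 112 summits fell inside a tRNA gene. All but 2 of the 112, that is 110, lay within 100 bp of the nearest tRNA start. Measured along the gene, the summit was 28 bp after the start in the median (quartiles 8 and 45.8 bp, n = 112), against 17 bp (quartiles -3 and 43 bp, n = 137) for autosomal tRNA genes. The B box core starts at base 52 of the gene in the median, so the median summit lay between the start and the B box. In genomic coordinates the shift turned with the strand of the gene. It was 24.5 bp to the right of the start for the 56 peaks nearest to a plus-strand gene and 29.5 bp to the left for the 56 nearest to a minus-strand gene. The own lists of the replicates gave medians of 24.5 bp in replicate 1 (68 peaks) and 18.5 bp in replicate 2 (44 peaks). All 112 peaks were listed at a width of 224 bp, which limits how finely a summit can be placed.

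**Figure D1:**
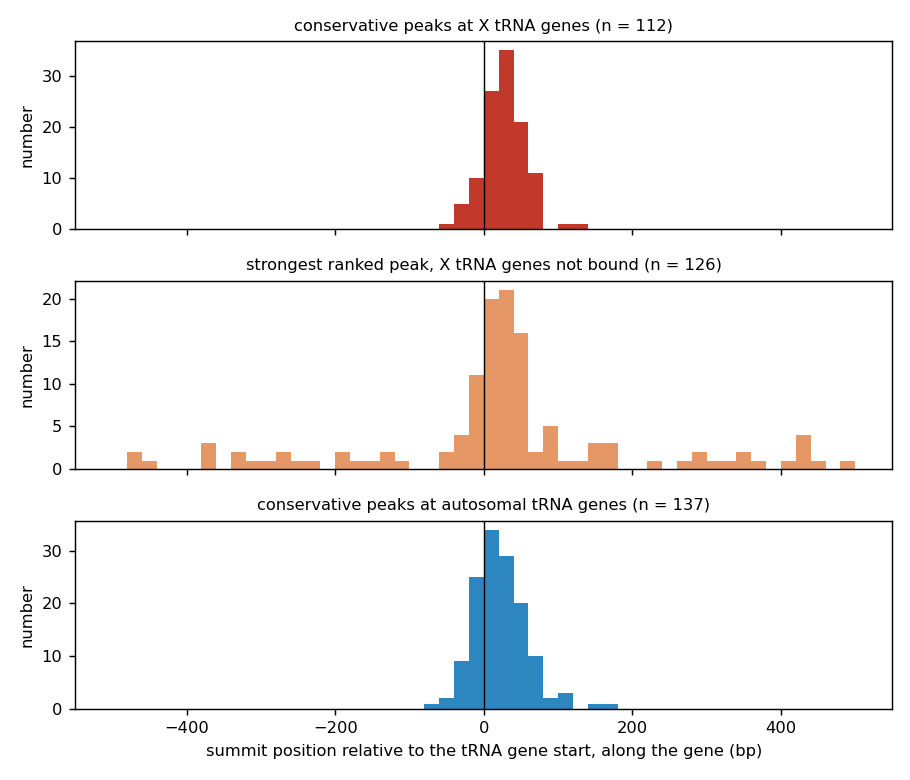
Position of the peak summit along the gene, in bp from the tRNA start, as numbers of peaks in 20 bp bins; the top panel has the 112 conservative peaks at X tRNA genes, the middle panel the strongest ranked peak of each of 126 X tRNA genes that were not bound, and the bottom panel the 137 conservative peaks at autosomal tRNA genes. The peaks of the conservative list gather just after the start in the top and bottom panels, and the weaker peaks of the middle panel pile up at the same place over a flat spread.

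The strongest X peaks were in the thresholded list of each replicate. They were picked by signal from a list called from both replicates, so this largely follows from the choice. Signal is the authors' value per peak, on a scale that the sources do not state, and ranks are within each replicate's own ranked list of 64186 peaks for replicate 1 and 70113 for replicate 2. The X peak of highest signal, 174, lay at chrX:3036028-3036251 over a divergent pair, M02F4.t2 and M02F4.t1. M02F4.t2 encodes a tRNA for glutamate and M02F4.t1 one for glycine. This peak ranked 101 in replicate 1 with a signal of 84.3 and 98 in replicate 2 with 80.6. The next, 170, lay at chrX:14063896-14064119 over C33G3.t2 (lysine), and it ranked 78 in replicate 1 (95.4) and 120 in replicate 2 (71.5). The peak over T28B4.t1 (phenylalanine) had a signal of 156, and it ranked 197 in replicate 1 (62.2) and 84 in replicate 2 (91.0). T28B4.t1 lies inside the span of fbxl-4 on the same strand. The replicates thus did not order these 3 peaks alike.

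A further 5 of the 12 strongest X peaks lay at tRNA genes. W02H3.t1 (leucine) had 141 with 78.6 in replicate 1 and 59.3 in replicate 2. C18A11.t2 (arginine) had 138 with 78.7 and 59.3 in replicates 1 and 2. C04A11.t1 (leucine), a gene with an intron, had 134 with 70.4 in replicate 1 and 67.8 in replicate 2. The signal was 133 at T07H6.t2 (alanine), which carried 70.4 in replicate 1 and 54.6 in replicate 2, and 132 at the divergent serine pair C53C7.t2 and C53C7.t1, with 58.7 in replicate 1 and 73.7 in replicate 2. All 8 of these peaks were in the thresholded list of each replicate. The other 4 of the 12 had no tRNA start within 500 bp. Over the conservative list the signal at X tRNA genes had a median of 83.1 (quartiles 70.8 and 102, n = 112), against 77.7 (67.2 and 92.8, n = 137) at autosomal tRNA genes, 73.6 (62.0 and 93.2, n = 57) at the X peaks elsewhere and 75.6 over all 813 peaks.

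Most X tRNA genes that missed the call still had a peak of lower rank at the same place. The ranked list used here, made from both replicates, holds 116935 peaks, mostly below the threshold. Of the 142 unbound X tRNA genes, 126 had a ranked peak within 500 bp of the start. For 100 of the 142 a ranked summit lay within 100 bp. Of all 5860 X genes, 81.3% had a ranked summit within 500 bp and 35.6% within 100 bp, so the wider window says little. Taking the strongest ranked peak within 500 bp, the signal of the 134 bound genes had a median of 83.1 (quartiles 71.0 and 100, lowest 48.1). That of the 126 unbound genes with a ranked peak was 45.8 (quartiles 33.8 and 55.3, highest 75.8). Since the call rests on these peaks, the gap between bound and unbound genes is a description. Among the 126 unbound genes, 119 lay above 20.4, the median of all ranked peaks, and 57 lay above the weakest bound gene. The value 20.4 is a median of single peaks, whereas each gene gave the strongest peak of its window. The strongest ranked peaks of 2156 X protein-coding genes had a median of 24.9 (quartiles 18.6 and 32.3), also above 20.4.

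The signals of bound and unbound genes overlapped, while their scores did not. This score, the authors' irreproducible discovery rate score of at most 1000, was 844 or more at every bound X tRNA gene and 814 or less at every unbound one. The lowest score in the conservative list was 830, so the split in scores largely follows from the call and is a description. The unbound genes with the 3 highest scores were all at 814. F41D9.t3 (asparagine, chrX:8404499-8404571) had a signal of 75.8 and was in the thresholded list of replicate 1 with 49.0, and it had no ranked peak in replicate 2. F49E7.t3 and F49E7.t1, both for arginine, shared 1 peak of signal 62.3, with 25.6 in replicate 1 and 31.9 in replicate 2. The conservative list left out 170 ranked peaks at or above its lowest score, so this score alone does not give the list. Of these 170, 31 were on X, and 0 of the 31 lay at an X tRNA gene.

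**Figure D2:**
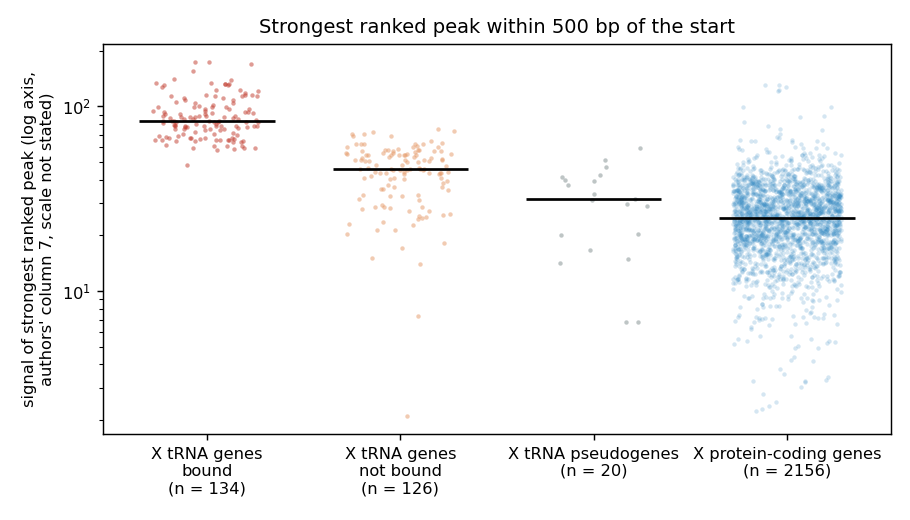
Signal of the strongest ranked peak within 500 bp of the start on a log axis, 1 point per gene with the median as a line, for X tRNA genes that were bound and not bound, X tRNA pseudogenes and X protein-coding genes that have such a peak. The medians are 83.1, 45.8, 31.3 and 24.9, and the signals of bound and unbound tRNA genes overlap between 48.1 and 75.8.

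Only 16 X tRNA genes had no summit of the whole-series ranked list within 500 bp. They carried 9 isotypes or none assigned, and 4 of the 16 were histidine genes of 1 cluster. In the replicates' own ranked lists 6 of the 16 had a peak in replicate 1 and 7 in replicate 2. Of the 16, 4 had none in any of the ranked lists used here. The gene F47E1.t1 (glutamine) was among the 16 and yet lay in the thresholded list of replicate 2, with a signal of 57.7 there. It was singled out after its values were seen.

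tRNA pseudogenes, decayed copies that the annotation keeps apart, gave a comparison on the same chromosome. Of 29 X tRNA pseudogenes, 1 was bound (3.45%, interval 0.611 to 17.2%), and the summit there also lay within 500 bp of an intact X tRNA gene. Ranked summits lay within 100 bp of the start in 226 of 276 X tRNA genes (81.9%), against 8 of 29 X tRNA pseudogenes (27.6%) and 879 of 2731 X protein-coding genes (32.2%). Ranked peaks are many, so a window of 500 bp caught one in 94.2% of X tRNA genes, 69.0% of X tRNA pseudogenes and 78.9% of X protein-coding genes.

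Each replicate called fewer genes on its own, in a shorter list. The own thresholded lists held 411 peaks in replicate 1 and 254 in replicate 2, against 813 in the conservative list. In the own thresholded list of replicate 1, 80 of the 276 X tRNA genes were bound (29.0%, 24.0 to 34.6%). They were 31.7% of the 252 with a ranked summit in that replicate, where the background over all genes with one was 2.82%. In that of replicate 2, 53 of the 276 were bound (19.2%, 15.0 to 24.3%), or 20.7% of the 256 with a ranked summit there, with a background of 1.53%. The autosomal shares were 20.2% (16.3 to 24.9%) in replicate 1 and 13.4% (10.2 to 17.5%) in replicate 2. Both own lists held the same 37 of the 276 X tRNA genes (13.4%, 9.88 to 17.9%), against 23 of 336 autosomal ones (6.85%, 4.60 to 10.1%). This difference was not tested. All 37 X genes were bound in the conservative list. A further 47 of the 134 bound genes were in neither own list, and 9 genes in an own list were not bound. The other whole-series thresholded list held 139 X tRNA genes, 121 of them shared with the conservative list.

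The own ranked lists held a peak for most X tRNA genes. Of the 276, 239 had a ranked peak in each replicate, among them all 134 bound genes. By replicate, 252 X tRNA genes had one in replicate 1 and 256 in replicate 2. Of all 31527 annotated genes, 18270 had a ranked summit at this distance in replicate 1 and 19282 in replicate 2. The bound genes lay at the 99.3 percentile of signal in both replicates in the median. The conservative list was called from both replicates, so peaks and high percentiles of bound genes in each largely follow from the call. For unbound genes with a peak the median percentile was 92.2 in replicate 1 (n = 118) and 87.7 in replicate 2 (n = 122). Across the 239 genes Spearman's rho between the replicates' signals was 0.597, and across the 134 bound genes it was 0.511. These points share their libraries, and neighbouring genes share peaks, so the correlations are descriptions.

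**Figure D3:**
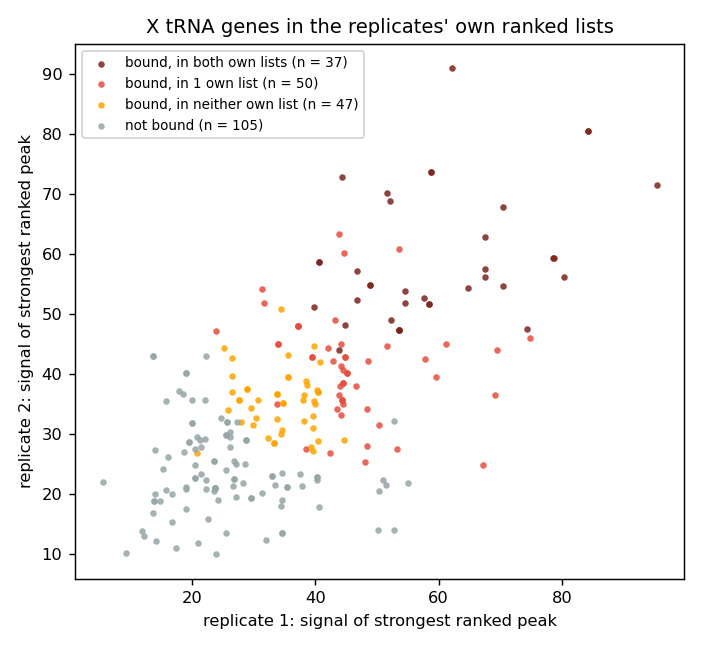
Signal of the strongest peak within 500 bp in the own ranked list of replicate 1 (horizontal) and replicate 2 (vertical), 1 point per X tRNA gene with a peak in both (n = 239), coloured by the lists that hold the gene. The 37 genes in both own lists lie at the upper right, the 47 bound genes in neither own list lie in the middle, and the 105 unbound genes lie mostly at the lower left.

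X tRNA genes stood closer together than autosomal ones. Chromosome X held 15.6 tRNA genes per Mb, against 4.07 per Mb on the autosomes, and it held 6.32 peaks at tRNA genes per Mb, against 1.66. With neighbouring starts at most 1000 bp apart counted as a cluster, 131 X genes (47.5%) fell into 53 clusters, against 99 autosomal genes (29.5%) in 45. The X clusters were 39 pairs, 9 of 3 genes, 1 of 4, 2 of 5 and 2 of 6. Density along X was uneven, with 71 genes between 8 and 10 Mb. In bins of 2 Mb the bound share was lowest at 16 to 18 Mb, with 10 of 34 genes (29.4%), and highest at 2 to 4 Mb, with 13 of 16 (81.2%).

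With the window of 500 bp, clustered and solitary genes on X were bound about equally often, but this depended on the window. The shares were 62 of 131 clustered genes (47.3%, 39.0 to 55.8%) and 72 of 145 solitary genes (49.7%, 41.6 to 57.7%). The clustered share was 38.9% with a window of 250 bp and 58.0% with one of 1000 bp. The solitary share was 49.7% with either window. Clustered genes can count as bound through a peak nearer to a neighbour. On the autosomes they were 57 of 99 clustered genes (57.6%, 47.7 to 66.8%) and 97 of 237 solitary genes (40.9%, 34.9 to 47.3%). Pairs on X were bound in 44 of 78 genes (56.4%), and genes in X clusters of 4 to 6 in 5 of 26 (19.2%, 8.51 to 37.9%). On the autosomes 6 of 8 genes in clusters of this size were bound (75.0%, 40.9 to 92.9%). The 26 genes sit in only 5 clusters, and no difference between these classes was tested. The strands had similar shares, with 65 of 136 plus-strand genes bound (47.8%, 39.6 to 56.1%) and 69 of 140 minus-strand genes (49.3%, 41.1 to 57.5%).

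Neighbours mostly shared their state. There were 78 neighbouring pairs of starts at most 1000 bp apart, of which 25 were divergent (median distance 162 bp), 17 convergent (321 bp) and 36 in the same direction (465 bp). In 29 of the 78 both genes were bound, but in 24 of these 1 peak served both and in 5 each had a peak of its own. Only 11 pairs had 1 bound and 1 unbound gene, and 38 had none bound. Of the 25 divergent pairs, 12 had both genes bound and 1 had 1 gene bound. The window of 500 bp is wider than most of these distances, and 22 of the 134 bound genes shared a peak whose summit was nearer to another tRNA start.

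The largest X clusters had few bound genes in the conservative list, and the count depended on the list. In the other whole-series list 9 of the 26 genes in X clusters of 4 to 6 were bound (34.6%, 19.4 to 53.8%), against 5 in the conservative list. F22F1.t2 to F22F1.t7 (chrX:8154445-8156707) span 2262 bp between their outer starts and carry 2 serine, 2 aspartate, 1 methionine and 1 isoleucine gene. In the conservative list only the isoleucine gene F22F1.t7 was bound, with a signal of 64.6 and a summit 20 bp before its start. The other genes lay beside ranked peaks below the threshold. The methionine gene F22F1.t6 had a signal of 68.7, above that of F22F1.t7, but a score of 604 against 1000 at F22F1.t7. F22F1.t4 to F22F1.t6 were in the thresholded list of replicate 1 and not in that of replicate 2. In the other whole-series list the calls were the other way round, with F22F1.t4 to F22F1.t6 bound and F22F1.t7 not.

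F28H6.t2 to F28H6.t7 (chrX:14135045-14137010) are 6 histidine genes of identical sequence within 1965 bp. None was bound in the conservative list, and F28H6.t4 and F28H6.t5 were bound in the other whole-series list. F28H6.t4 and F28H6.t5 shared 1 ranked peak of signal 56.9 and score 254, and the other 4 had no ranked summit. In the own ranked lists the strongest peak near these 2 genes had a signal of 13.6 in replicate 1 and 42.9 in replicate 2. The sequence around this cluster is repeated. In the 500 bp around each start, a median of 80.7% of all 31-mers (runs of 31 bases) occurred more than once in the genome, with 14.3% at F28H6.t2, the lowest, and 97.0% at F28H6.t3 and F28H6.t4, the highest. F28H6.t2 had no ranked summit and F28H6.t4 had one. The median was 12.1% for bound X tRNA genes (upper quartile 14.1%) and 12.3% for unbound ones (upper quartile 19.2%). The 16 genes without a ranked summit had a median no higher than the bound genes, with an upper quartile of 21.0%. Genes in X clusters of 4 to 6 had a median of 18.4%. Whether repeated sequence bears on the calls was not tested. X holds 2 further genes of the same sequence, each standing alone. C06G1.t1 (chrX:16634830-16634901) was bound in the conservative list and in those of both replicates, with a signal of 130. C49F5.t1 was in none of these lists and had a ranked peak of signal 54.7, and it was bound in the other whole-series list. These 2 genes were singled out after their values were seen.

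K01A12.t1 to K01A12.t5 (chrX:8623603-8624532) carry 2 arginine and 3 cysteine genes, and none was bound. Their ranked peaks had signals of 28.7 and 43.7. H08J11.t1 to H08J11.t5 (chrX:9090627-9091628) are 5 glutamine genes, of which 3 counted as bound through 1 peak of signal 83.1. That summit lay 7 bp after the start of H08J11.t3, and 453 bp before the start of H08J11.t4 along that gene. Counted by the nearest start, 1 of these 5 genes was bound. The peak was in the thresholded list of replicate 2 (48.0) and not in that of replicate 1 (37.2).

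**Figure D4:**
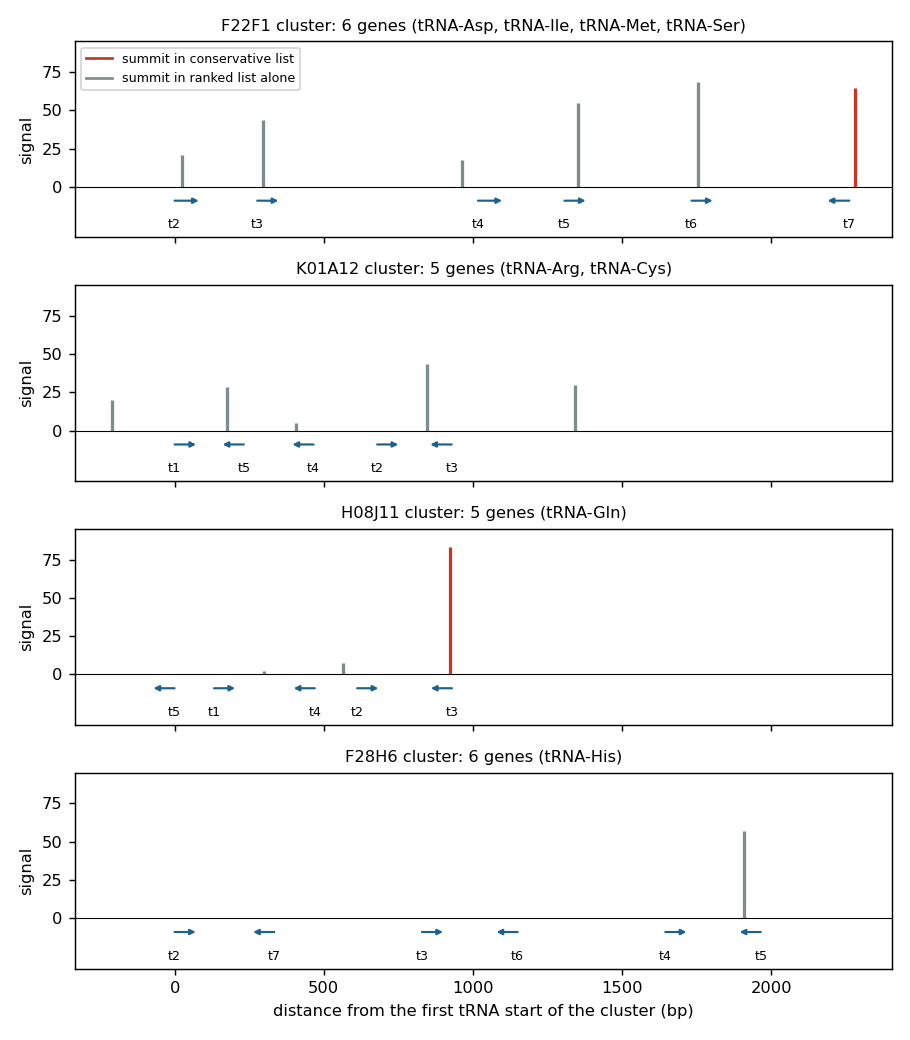
The 4 X clusters of 5 or 6 tRNA genes, drawn to scale by distance in bp from the first start; arrows are the genes in their direction of transcription, and bars give the signal of ranked summits, red where the summit is also in the conservative list. A red bar stands over F22F1.t7 and over H08J11.t3 alone, and no bar stands over the first 4 genes of the F28H6 cluster.

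Copies of 1 tRNA sequence were bound in some places and not in others. The 276 X genes carry 104 distinct mature sequences, and 223 genes have an identical copy somewhere in the nuclear genome. Of these 223, 112 were bound (50.2%, 43.7 to 56.7%), against 22 of the 53 genes whose sequence occurs once (41.5%, 29.3 to 54.9%). On the autosomes the shares were 51.0% (44.9 to 57.0%) for genes with copies and 28.6% (19.7 to 39.5%) for single ones. Among 34 groups with 2 or more identical X members, 31 held both bound and unbound members, 2 had all members bound and 1 had none. All 20 groups with 5 or more X members were mixed. Identity ended near the gene, since only 2 X genes matched another tRNA gene over the gene and 50 bp on either side.

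The group with most copies in the genome is a glycine gene with 29 copies, 11 of them on X. Of the 11 X copies 8 were bound, against 13 of the 18 autosomal copies, and the ranked signal on X ran between 41.0 and 174 with a median of 78.1. The highest value belonged to M02F4.t1 in its pair with M02F4.t2. The group with most X members is a proline gene with 13 copies on X, 5 of them bound, and 11 on the autosomes, 5 of them bound. Its X copies had ranked signals between 22.7 and 115. Of 2 glutamate groups, the one with 12 X copies had 4 bound (33.3%, 13.8 to 60.9%) and the one with 8 had 7 bound (87.5%, 52.9 to 97.8%). An arginine group of 10 copies, to which C18A11.t2 belongs, lies on X alone, and 5 of the 10 were bound in the conservative list and 8 in the other whole-series list. These 4 groups other than the glycine group were chosen after their values were seen.

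By the amino acid of the tRNA (isotype), the bound share on X ran between 11.1% and 100% in the conservative list, in groups of 5 to 27 genes. RefSeq gave an isotype to 273 of the 276 X genes, with 20 isotypes, and each of the 20 had at least 1 bound gene. The isotypes named here were chosen after their values were seen. All 5 tryptophan genes on X were bound (interval 56.6 to 100%), against 2 of 7 on the autosomes (28.6%, 8.22 to 64.1%). They are sup-7, sup-21, sup-28, sup-33 and rtw-5, and the sup genes are known as amber suppressor loci, in which mutants read the UAG stop codon. The signals were 97.1 at sup-7, 75.2 at sup-21, 70.6 at sup-28, 82.4 at sup-33 and 74.5 at rtw-5. In the own list of replicate 1, 3 of the 5 were bound, and in that of replicate 2, 0 of 5. Lysine genes were bound in 13 of 18 cases on X (72.2%, 49.1 to 87.5%) and 18 of 28 on the autosomes (64.3%). Alanine genes followed with 9 of 13 on X (69.2%, 42.4 to 87.3%) and 12 of 21 on the autosomes (57.1%).

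Histidine and isoleucine genes had the lowest shares on X in the conservative list. On X, 1 of 9 histidine genes was bound (11.1%, 1.99 to 43.5%), against 1 of 11 on the autosomes (9.09%). The other whole-series list held 4 of the 9 X histidine genes (44.4%, 18.9 to 73.3%), and 6 of the 9 are the F28H6 cluster. Isoleucine genes were bound in 2 of 13 cases on X (15.4%, 4.33 to 42.2%) and 6 of 16 on the autosomes (37.5%, 18.5 to 61.4%). Arginine, the isotype with most X genes, had 11 of 27 bound on X (40.7%, 24.5 to 59.3%) and 11 of 17 on the autosomes (64.7%, 41.3 to 82.7%). Glutamine differed between the replicates. Of 15 X glutamine genes 6 were in the thresholded list of replicate 2, through 3 peaks, and 0 in that of replicate 1. The intervals of X and autosomes overlap for every isotype, and no isotype was tested.

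**Figure D5:**
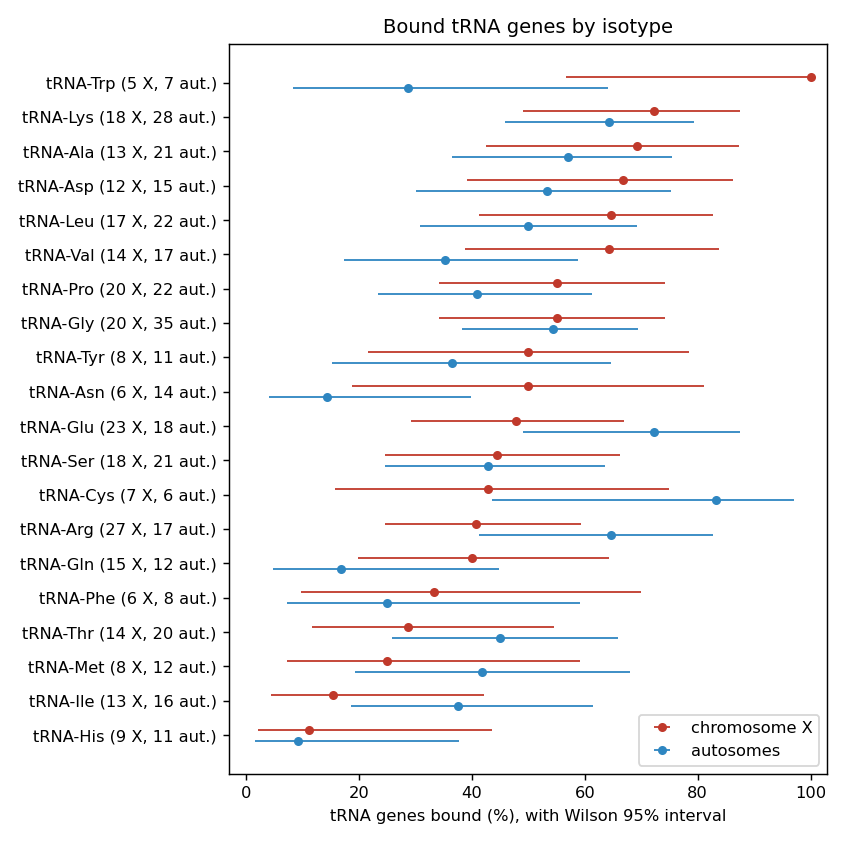
Share of tRNA genes bound in the conservative list by isotype, with Wilson 95% intervals, for chromosome X (red, upper) and the autosomes (blue, lower), with the number of genes in brackets. On X the shares run between 11.1% for tRNA-His and 100% for tRNA-Trp, and the 2 intervals overlap in each isotype.

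X tRNA genes inside and outside protein-coding genes were bound at similar shares. Of the 276 genes, 180 lay outside protein-coding genes and 84 of these were bound (46.7%, 39.5 to 53.9%). Of the 51 inside a protein-coding gene on the same strand 26 were bound (51.0%, 37.7 to 64.1%), and of the 45 inside one on the opposite strand 24 were (53.3%, 39.1 to 67.1%). All but 1 of these 96 hosted genes lay clear of protein-coding exons. The nearest protein-coding start was 1740 bp away in the median for bound genes and 1870 bp for unbound ones, and 15 of the 112 X peaks at tRNA genes had a protein-coding start within 500 bp of the summit. The 12 X genes with an intron had 5 bound members (41.7%, 19.3 to 68.0%), against 129 of 264 without one (48.9%, 42.9 to 54.9%).

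The protein-coding genes that make and use tRNAs held no peak of the conservative list near a start, a count near what the background share of 3.82% gives for lists of this size. Of 19 genes for RNA polymerase III, its factors and tRNA maturation, among them the catalytic subunit rpc-1, the TFIIIB subunit brf-1 and the tRNA exporter xpo-3, 15 had a ranked summit near a start and 0 of 19 were bound. Of 21 aminoacyl-tRNA synthetase genes, which charge tRNAs with their amino acids, 20 had a ranked summit near a start and 0 of 21 were bound. None of these genes lies on X.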

How the data were processed

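The authors deposited ce11 peak lists, namely a ranked and a thresholded list per replicate and whole-series lists made from both replicates. The deposited score is the authors' irreproducible discovery rate score, and the deposited signal is 1 value per peak, on a scale not stated. Aligner, caller and versions are not stated in the labels or files, depth is unknown, and the control library was not analysed here. A further 10 unnamed columns of the ranked list were left out, and another deposited whole-series ranked list was not used.

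A summit is the peak start plus the deposited offset. Genes came from Ensembl release 115 of WBcel235, without piRNA and mitochondrial genes, and isotypes and sequence from its RefSeq copy with WormBase WS298. For each gene, signal was read from the strongest peak within 500 bp. Peak assignment was tested on simulated data. Shares carry Wilson 95% intervals, and no test was run, since there was 1 group and genes share peaks. Other windows, lists, cluster distances and identity rules were tried, with effects given at the close. Values of the replicates were compared by rank or percentile in each list where these are given. Signals printed side by side are the deposited values, on a scale not stated. Analyses used Python with numpy, pandas, scipy and matplotlib.

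The genes named were those at the 12 X peaks of highest signal, the members of the largest clusters (ties kept), the group with most identical copies and the 3 unbound genes of highest score, and other names are stated as chosen later. Members and lists were chosen with earlier results of these data known. Whether the replicates came from separate cultures beyond their label of biological replicates is not stated.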

Additional observations from a re-analysis of the deposited data

How the results depend on the processing

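In the replicates' own lists, taken without replicate 1 or without replicate 2, the bound share of X tRNA genes was 19.2% to 29.0%, and that of autosomal ones 13.4% to 20.2%. It was 19.8% to 26.0% for clustered, 18.6% to 31.7% for solitary, 19.9% to 28.7% for plus-strand and 18.6% to 29.3% for minus-strand X genes. It was 21.1% to 31.4% for X genes with identical copies and 11.3% to 18.9% for those without. With the 50% of conservative peaks of highest signal the shares were 34.1% on X, 26.2% on the autosomes, 32.8% for clustered, 35.2% for solitary, 30.9% for plus-strand, 37.1% for minus-strand, 37.7% for copied and 18.9% for single-copy X genes. Giving each summit to its nearest tRNA start left 40.6% of X genes bound. Clustered X genes were bound in 38.9% with a window of 250 bp and 58.0% with one of 1000 bp. With identity over 50 bp flanks, 0 of 2 copied X genes were bound.

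For the same shares, the other settings run (the other whole-series list, high-scoring ranked peaks put back, peak overlap with the gene, the remaining windows and cluster distances, genes with a ranked summit as denominator) stayed inside the main intervals. By isotype, cluster size and identical group the other whole-series list alone was run, after the data were seen. The X histidine share was 44.4% there, outside its main interval, and the other 19 X isotypes stayed inside theirs. X clusters of 4 to 6 moved to 9 of 26 bound genes, against 5. Of the 20 largest identical groups on X the histidine group moved to 50.0% and the arginine group of 10 to 80.0%, both outside their main intervals. No paired analysis was possible because there was 1 group. The depth is unknown, and fixed peak widths limit positions.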
